A study of Mus musculus with 28 samples.

Results

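The ADAM genes are described here over 10 groups of mouse testis RNA arrays. They were chosen by name, as every gene whose symbol on the array platform is Adam followed by a number and at most a letter, among probe sets with 1 symbol. The rule found 28 of 18193 genes, measured by 46 of 34945 such probe sets, and used no measured value. The lists that follow were drawn up with earlier results of these data known. From general knowledge of their expression, 15 were listed as germ cell ADAMs (Adam1a, Adam1b, Adam2, Adam3, Adam4, Adam5, Adam6a, Adam6b, Adam18, Adam21, Adam24, Adam25, Adam26a, Adam32 and Adam34) and 13 as somatic ADAMs (Adam7, Adam8, Adam9, Adam10, Adam11, Adam12, Adam15, Adam17, Adam19, Adam22, Adam23, Adam28 and Adam33). The arrays came from testes of adult male C57BL/6 mice, either wild type (WT) or GRTH-/- (KO), which lack the gonadotropin-regulated testicular RNA helicase GRTH, the product of Ddx25. Each genotype gave 4 arrays of spermatocytes, 3 of round spermatids, 2 of Leydig cells and 3 of RNA from testicular polysomes. Polysome RNA precipitated by an antibody to GRTH was read on 2 further arrays, and that precipitated by IgG on 2. Cells had been separated by centrifugal elutriation and polysomes on sucrose gradients. The study asks which testicular messages on polysomes depend on GRTH. The knockout is of the whole animal, and males without GRTH are sterile, with germ cells that stop as round spermatids. The labels tie no replicate to an animal of its own, so each p-value rests on a spread between arrays that may be only technical.

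ADAM proteins are membrane-anchored proteins with a metalloprotease-like and a disintegrin-like domain. Many of them are made almost only by male germ cells, placed on the sperm surface, and cut or sorted as sperm mature. The fertilin subunits ADAM1 and ADAM2, and their partner ADAM3 (cyritestin), act in sperm migration through the oviduct and in binding to the egg coat. The testases (Adam24, Adam25, Adam26a and Adam34) are germ cell members named as likely proteases. Somatic members such as ADAM10 and ADAM17 are sheddases, which release growth factors, cytokines and receptor ectodomains from cell surfaces.

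Bases before the transcription start are shown for members that the results turn on, because the lists differed in this window by a feature that the rule did not use. RefSeq promoter windows (GRCm38.p6) were matched for 14 of the 28 genes, 7 in each list, and the 250 bases before the start were read. Capitals mark every CG dinucleotide, and each line runs 5′ to 3′ on the strand of its gene.
Adam25 (chr8:40751958-40752207, plus strand): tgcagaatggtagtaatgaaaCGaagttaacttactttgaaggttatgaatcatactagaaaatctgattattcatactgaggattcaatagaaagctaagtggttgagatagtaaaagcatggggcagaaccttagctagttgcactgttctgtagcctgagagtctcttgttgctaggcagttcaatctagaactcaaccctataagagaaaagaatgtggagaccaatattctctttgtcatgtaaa
Adam34 (chr8:43665561-43665810, minus strand): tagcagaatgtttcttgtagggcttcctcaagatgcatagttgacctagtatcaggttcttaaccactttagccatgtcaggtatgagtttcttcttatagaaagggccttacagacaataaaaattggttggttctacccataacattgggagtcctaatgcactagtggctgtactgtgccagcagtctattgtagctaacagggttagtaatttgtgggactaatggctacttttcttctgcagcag
Adam21 (chr12:81568475-81568724, minus strand): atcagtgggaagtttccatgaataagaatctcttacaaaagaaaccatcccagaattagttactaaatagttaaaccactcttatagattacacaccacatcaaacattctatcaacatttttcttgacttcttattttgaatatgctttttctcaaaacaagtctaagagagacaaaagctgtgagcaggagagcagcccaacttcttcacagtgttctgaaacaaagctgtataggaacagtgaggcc
Adam1b (chr5:121503436-121503685, minus strand): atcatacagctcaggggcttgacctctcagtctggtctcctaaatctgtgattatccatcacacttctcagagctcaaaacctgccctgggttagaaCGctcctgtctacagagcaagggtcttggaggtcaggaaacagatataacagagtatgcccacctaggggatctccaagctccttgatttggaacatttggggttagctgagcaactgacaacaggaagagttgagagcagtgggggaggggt
Adam10 (chr9:70678732-70678981, plus strand): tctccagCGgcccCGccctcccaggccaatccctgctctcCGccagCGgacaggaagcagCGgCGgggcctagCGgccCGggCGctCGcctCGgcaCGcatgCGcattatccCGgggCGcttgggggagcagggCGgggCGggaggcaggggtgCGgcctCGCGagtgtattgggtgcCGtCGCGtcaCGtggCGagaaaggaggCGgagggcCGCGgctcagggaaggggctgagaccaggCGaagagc
Adam17 (chr12:21373633-21373882, minus strand): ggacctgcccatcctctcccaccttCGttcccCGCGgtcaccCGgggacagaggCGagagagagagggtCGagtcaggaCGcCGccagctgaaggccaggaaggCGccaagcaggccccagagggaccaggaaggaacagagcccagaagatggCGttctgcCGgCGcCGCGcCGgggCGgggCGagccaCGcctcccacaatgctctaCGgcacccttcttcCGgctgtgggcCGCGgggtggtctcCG

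The 4 germ cell windows held few CG dinucleotides, with 1 in that of Adam25, 0 in those of Adam34 and Adam21, and 1 in that of Adam1b. The windows of the sheddases held 29 (Adam10) and 23 (Adam17). Over the 7 germ cell genes with a window the count ran from 0 to 4 (median 1), and over the 7 somatic genes from 5 to 29 (median 18), taking the first of 3 windows of Adam19. The 3 windows of Adam19 held 5, 7 and 4, so with the last of them the ranges of the lists would meet at 4. Among all 32851 windows of this length the median was 6. The short site TGACG of the cyclic AMP response element, searched on both strands, was present in 17.765% of all windows and in that of Adam10 alone among the 14 members. The whole site TGACGTCA was in 1.546% of all windows and in no member's. TATAAA, also searched on both strands, was in 12.368% of all windows and in those of Adam6a and Adam6b. In both it lay on the strand opposite to the gene, inside the identical stretch that these windows share, shown next.

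Adam6a and Adam6b are near-copies of one another, so their windows are shown with their longest identical stretch in capitals.
Adam6a (chr12:113543658-113543907, plus strand): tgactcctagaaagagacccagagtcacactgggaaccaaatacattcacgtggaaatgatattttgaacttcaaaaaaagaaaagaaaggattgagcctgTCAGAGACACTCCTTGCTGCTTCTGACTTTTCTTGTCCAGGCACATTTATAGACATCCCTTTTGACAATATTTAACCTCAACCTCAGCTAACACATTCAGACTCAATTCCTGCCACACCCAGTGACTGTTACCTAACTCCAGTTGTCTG
Adam6b (chr12:113489315-113489564, plus strand): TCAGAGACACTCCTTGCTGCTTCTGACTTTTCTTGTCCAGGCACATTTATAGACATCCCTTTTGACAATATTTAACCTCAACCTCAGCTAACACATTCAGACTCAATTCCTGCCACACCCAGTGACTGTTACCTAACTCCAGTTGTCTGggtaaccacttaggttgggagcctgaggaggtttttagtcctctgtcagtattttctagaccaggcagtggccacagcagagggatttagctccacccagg
The stretch was 149 bases long. It ended 1 base before the start given for Adam6a and 102 bases before that given for Adam6b, an offset of 101 bases. Signals of this pair on their probe sets are given together further on, since whether each probe set reads both copies was not tested.

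Signals were linear intensities, brought to a trimmed mean of 500 on every array, and differences are on the log2(signal + 16) scale, which understates the change of dim genes. For each comparison the brighter 9097 genes by mean signal on its arrays entered a limma fit, with Benjamini-Hochberg adjustment over all of them, and a gene was called at an adjusted p under 0.05. Ddx25 read 14834, 21149 and 14624 in WT polysome RNA and 1063, 598 and 805 in KO, and its KO signals lay below the WT signals in every fraction. Its log2 differences were -4.35 ± 0.27 in polysome RNA, -2.26 ± 0.08 in spermatocytes, -1.97 ± 0.10 in round spermatids and -1.99 ± 0.02 in the Leydig fraction. On 4 arrays (IgG 1, WT polysome 1 and 2, and KO polysome 1) a free-text description names another group than the title, and the titles were followed. The same WT polysome arrays, with KO polysome 1 and 2, were deposited unscaled and stand apart in that respect. The fractions were mixed. The 14 elongating spermatid markers summed to 214035 to 216672 on the WT Leydig arrays against 138331 to 167603 on the WT spermatocyte arrays. The 6 Leydig cell markers measured summed to 30945 to 30999.5 on the WT Leydig arrays, 6272 to 6865 on the WT spermatocyte arrays and 868 to 932 on the WT round spermatid arrays.

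Germ cell members were detected more often than somatic members. The lists were made from known expression, so this describes the lists and is not a finding of the arrays. Of the germ cell ADAMs, 12 to 14 of 15 lay at or above the median of all genes in each of the 10 groups, and of the somatic ADAMs 3 to 5 of 13. In all, 18 members were tested in at least 1 comparison and 10 in none, namely Adam1a, Adam4 and 8 somatic genes (Adam7, Adam8, Adam12, Adam19, Adam22, Adam23, Adam28 and Adam33). The heat map of group means shows each gene against its own mean, so that levels of different probe sets are not set against each other.

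**Figure D1:**
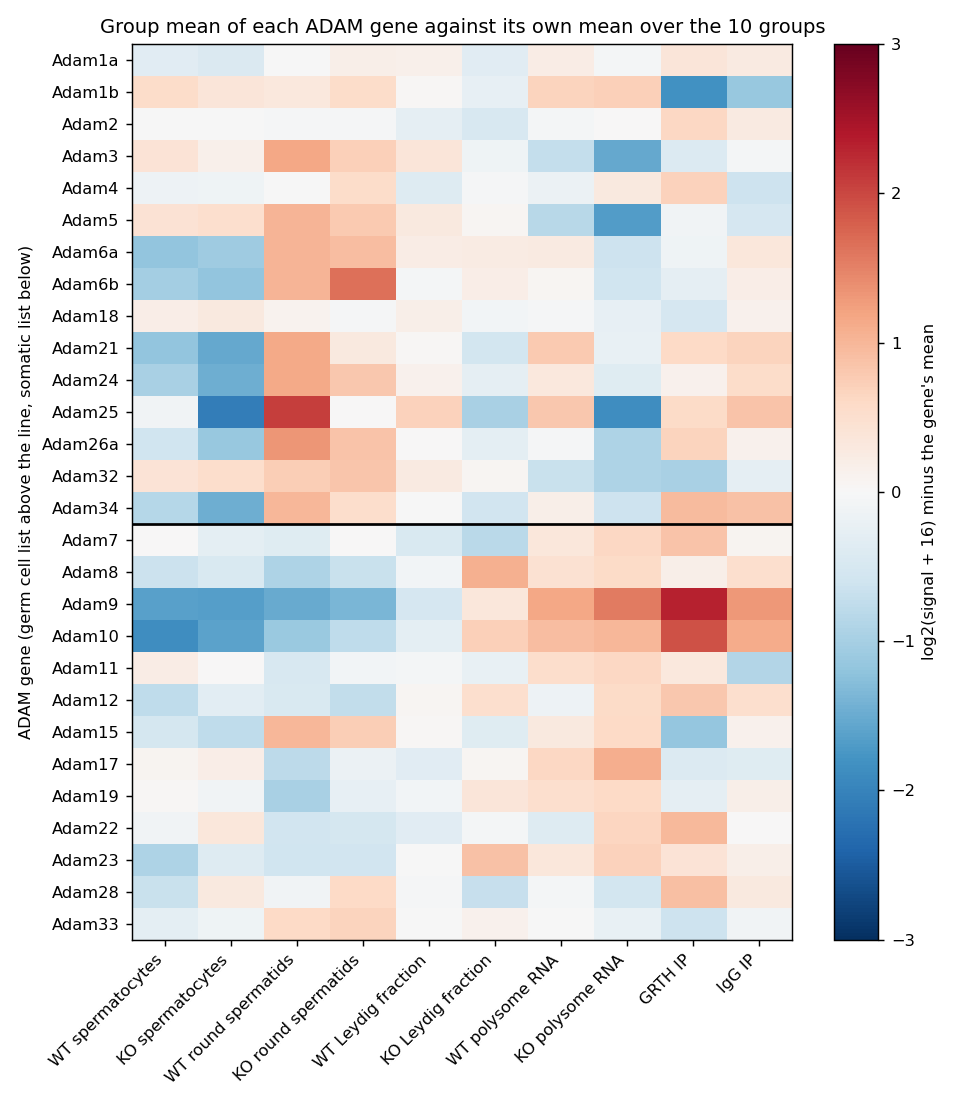
Heat map of the 28 ADAM genes (rows) over the 10 groups (columns). Colour gives the group's mean log2(signal + 16) minus the gene's mean over the groups, red for above and blue for below, with 15 germ cell genes above the line and 13 somatic genes below it. Adam25 is the germ cell row with the deepest blue in KO spermatocytes and KO polysome RNA, and Adam9 and Adam10 are bluest in the germ cell fractions.

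From spermatocytes to round spermatids, most germ cell ADAMs tested rose in WT testes, and the size of the rise divided them. Of the 17 members tested, 12 were higher and 2 lower. Of all genes tested 36.2% were higher and 51% lower, 87.2% in all. The 13 germ cell members tested gave 10 higher and 0 lower, with a median of 1.86 against -0.24 for all genes tested. At an unadjusted p under 0.05, 10 of the 13 were higher and 0 lower as well, beside 3312 higher and 4660 lower of all 9097 genes. The 4 somatic members gave 2 higher and 2 lower, with a median of 0.01. These counts include Adam10 and Adam11, which passed the filter on dim genes through a single cell type, as given below.

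Adam21, whose protein is found on sperm, read 588, 561, 724 and 753 on the WT spermatocyte arrays and 3274, 3297 and 3279 on the WT round spermatid arrays. Every round spermatid array lay far above every spermatocyte array. The log2 rise was 2.31 ± 0.11 (limma, adjusted p = 6.15e-08). Adam24, testase 1, read 1659, 1688, 1559 and 1629 and then 6719.6, 6875 and 7619, again without overlap, a rise of 2.10 ± 0.06 (adjusted p = 6.63e-09). Adam6a, whose protein is in complexes with ADAM2 and ADAM3, rose by 2.20 ± 0.07 (adjusted p = 7.15e-09), with spermatocyte arrays at 1015 to 1166 and round spermatid arrays at 4808 to 5302. Adam6b, Adam25, Adam26a and Adam34 rose by 2.02, 2.20, 1.92 and 1.86. So the 4 testases, Adam21 and both Adam6 copies rose by 1.86 to 2.31 on the log2 scale. Elongating spermatid markers rose with them, 14 of 14, by a median of 1.79. In KO, where germ cells stop as round spermatids, 14 of 14 rose too, by a median of 1.88. The list therefore does not stand for elongating cells alone, and its part in the ADAM rises was not tested.

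The fertilin and ADAM3 group changed less. Adam2, fertilin beta, read 16841, 15092, 13078 and 12109 in WT spermatocytes and 15620.0, 14700.0 and 11622 in WT round spermatids. The ranges overlapped, and the difference was -0.03 ± 0.14, adjusted p = 0.842. Adam1b, the fertilin alpha that reaches the sperm surface, and Adam18, a testis gene of unassigned role, were not called either, at -0.24 ± 0.14 (adjusted p = 0.139) and -0.10 ± 0.06 (adjusted p = 0.136). Without WT round spermatid array 3 the Adam1b fall was called, at -0.40 (adjusted p = 0.0118), and under quantile normalization Adam1b, Adam2 and Adam18 were all called lower, at -0.41, -0.53 and -0.25. Adam3, needed for sperm to pass into the oviduct, rose by 0.75 ± 0.11 (adjusted p = 0.000189). Adam5, a testis-specific relative of Adam3, rose by 0.58 ± 0.12, and Adam32, also testis-specific, by 0.33 ± 0.09; both changed sign under quantile normalization, to -0.0040 and -0.19. The Adam32 rise was not called under median centring (0.15) or with near-identical arrays averaged (0.30).

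Among somatic members, Adam15 and Adam10 rose by 1.54 ± 0.14 and 0.74 ± 0.13, and Adam17 and Adam11 fell by 0.86 ± 0.09 and 0.72 ± 0.16. Adam10 passed the filter on dim genes through its round spermatid signals, since its WT spermatocyte mean of 145 lay below the group's median of 151. Its rise is therefore given as a value, and with no filter it was called as well (limma, adjusted p = 0.00316). Adam11 passed the filter on dim genes through its spermatocyte signals (172 to 231), since its WT round spermatid mean of 116 lay below the group's median of 159, and it stayed in the test in 3 of 7 fits that left out 1 array. Its fall is therefore given as a value and supports nothing. ADAM17 is the converting enzyme of tumour necrosis factor, and ADAM11 lacks a protease active site. In KO testes the same 2 cell types gave 12 higher and 2 lower of the 16 members tested, with 38.8% of all genes tested higher and 46.5% lower, 85.3% in all. There the 13 germ cell members gave 10 higher and 1 lower, with a median of 1.83 against -0.10 for all genes. Adam24, Adam26a and Adam34 rose by 2.27 ± 0.06, 1.99 ± 0.07 and 1.99 ± 0.05 in KO, and Adam21 by 1.83 ± 0.05. Adam6b had the largest KO rise of the members tested, 2.85 ± 0.18 (adjusted p = 5.93e-07), from 449.5, 295, 290.5 and 307 to 2888, 2730.0 and 1930.2 without overlap. Adam25 rose by 2.07 ± 0.15 in KO, from 82.0, 88.6, 104 and 138 to 449, 466 and 523, a rise whose start and end both lay below those of WT. It passed the filter through its KO round spermatid signals, since its KO spermatocyte mean of 103 lay below the group's median of 152. Adam18 was the germ cell member that fell, by 0.34 ± 0.06, and Adam17 fell by 0.38 ± 0.11, a call lost under quantile normalization (-0.21), as was the Adam32 rise (0.09). The Adam5 rise of 0.28 ± 0.11 (adjusted p = 0.0385) was lost when KO spermatocyte array 2, 3 or 4 or KO round spermatid array 1 or 2 was left out, at 0.29, 0.26, 0.21, 0.19 and 0.28, and with no filter. Without KO spermatocyte array 3 Adam1b was called higher (0.27).

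**Figure D2:**
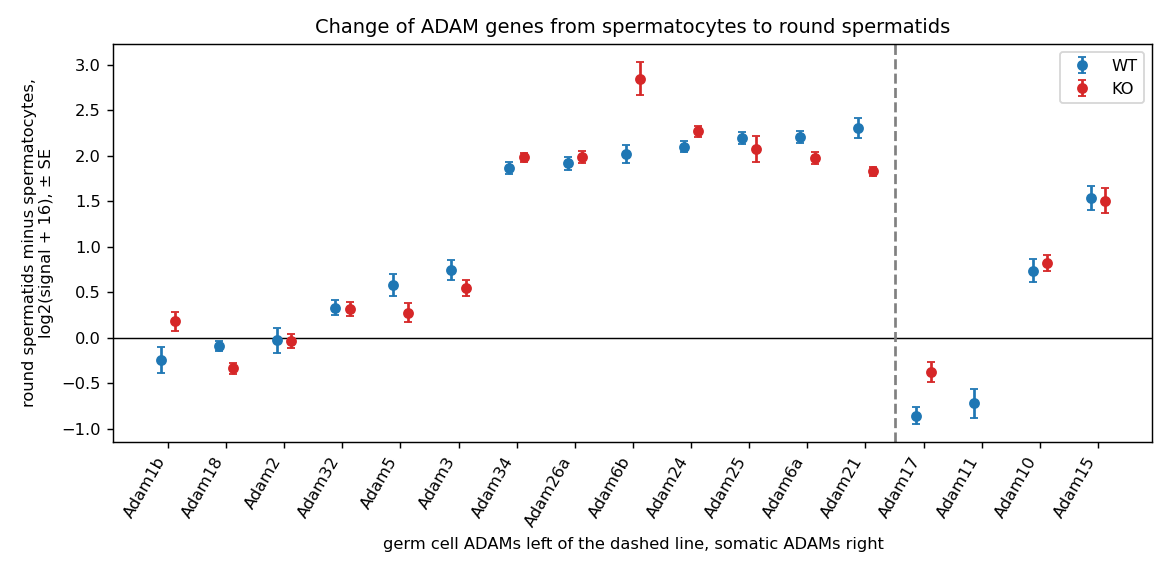
Change from spermatocytes to round spermatids in WT (blue) and KO (red) for each ADAM gene tested, as the limma difference in log2(signal + 16) with bars for ± SE (4 spermatocyte and 3 round spermatid arrays per genotype). The testases, Adam21 and Adam6a lie between 1.83 and 2.31 in both genotypes, Adam6b lies at 2.02 in WT and 2.85 in KO, and Adam2 lies near 0 in both.

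Adam25 was lower in KO than in WT by more than any other member tested, in each of the 4 fractions. Adam25, testase 2, read 458, 464, 403 and 429 in WT spermatocytes and 82.0, 88.6, 104 and 138 in KO spermatocytes. All KO arrays lay far below all WT arrays, and the KO mean was 23.5% of the WT mean (-1.95 ± 0.13, adjusted p = 4.78e-06 by limma). In round spermatids it read 2079, 2118 and 2009 in WT and 449, 466 and 523 in KO, and in the Leydig fraction 785 and 767 in WT and 239 and 233 in KO. KO means were 23.2% and 30.4% of WT, with log2 falls of 2.08 ± 0.08 (limma, adjusted p = 2.98e-06) and 1.65 ± 0.03 (adjusted p = 2.38e-05). In polysome RNA it read 778, 721 and 1064 in WT and 108, 106 and 146 in KO. Again no KO array reached a WT array, and the KO mean was 14.0% of WT (-2.67 ± 0.23, adjusted p = 0.000413 by limma). Fewer cells that make the message and less message in each cell cannot be told apart in such bulk samples. In polysome RNA and spermatocytes Adam25 passed the filter on dim genes through its WT signals. Its KO means of 120 and 103 there lay below the group medians of 296 and 152. With no filter it was called in both, at adjusted p of 0.00444 and 0.000119 by limma. In polysome RNA it stayed in the test in 3 of 6 fits that left out 1 array and was called in those 3. With the tested genes held, a setting chosen after the data were seen, the polysome fall was called in 6 of 6 cases, from -2.80 to -2.50. With the values as deposited, without rescaling, the difference was -2.49 and was not called (adjusted p = 1).

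The other testases fell too, by smaller amounts. Adam34, testase 4, read 492, 504, 534 and 517 in WT and 321, 342, 335 and 338 in KO spermatocytes, and 1748, 1966 and 2011 in WT and 1346, 1370.5 and 1391 in KO round spermatids. KO arrays were below WT arrays in both cell types, with differences of -0.59 ± 0.04 (limma, adjusted p = 9.34e-06) and -0.47 ± 0.07 (adjusted p = 0.0011). Adam26a, testase 3, read 1092, 1186, 1029 and 1114 in WT spermatocytes and 724, 799, 733 and 741 in KO. In round spermatids it read 4404, 4299.9 and 3941 in WT and 3092, 3196 and 2784 in KO. The groups did not overlap in either, with falls of 0.55 ± 0.05 (adjusted p = 6.46e-05) and 0.48 ± 0.08 (adjusted p = 0.00155). Adam24, which acts in the block to entry of a further sperm, read 1073, 1189, 1158 and 1191 in KO spermatocytes and 5963, 5508 and 5391 in KO round spermatids, below each WT value given above. Its falls were 0.50 ± 0.05 (adjusted p = 6.23e-05) and 0.33 ± 0.08 (adjusted p = 0.00742), the latter not called under quantile normalization (-0.18). Among Leydig fraction arrays Adam24, Adam26a and Adam34 fell by 0.40, 0.31 and 0.56.

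In polysome RNA these 3 testases were lower on every KO array than on every WT array without passing the test. The share of all genes without overlap was not computed, so the gap does not stand in for the test. Adam24 read 3488, 4141 and 4471 in WT and 1902, 2816 and 2926 in KO (-0.68 ± 0.24, adjusted p = 0.152 by limma). Adam26a read 1606, 1420.0 and 1899 in WT and 670.1, 848 and 1140.2 in KO (-0.90 ± 0.25, adjusted p = 0.0691). Adam34 read 883, 1144 and 1206 in WT and 577, 496 and 792 in KO (-0.79 ± 0.24, adjusted p = 0.102). Same-numbered arrays deviated together, and with the replicate number as a block all 3 were called, at adjusted p of 0.00962, 0.0022 and 0.00586. The plot of testase signals by array shows the 4 genes over all groups.

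**Figure D3:**
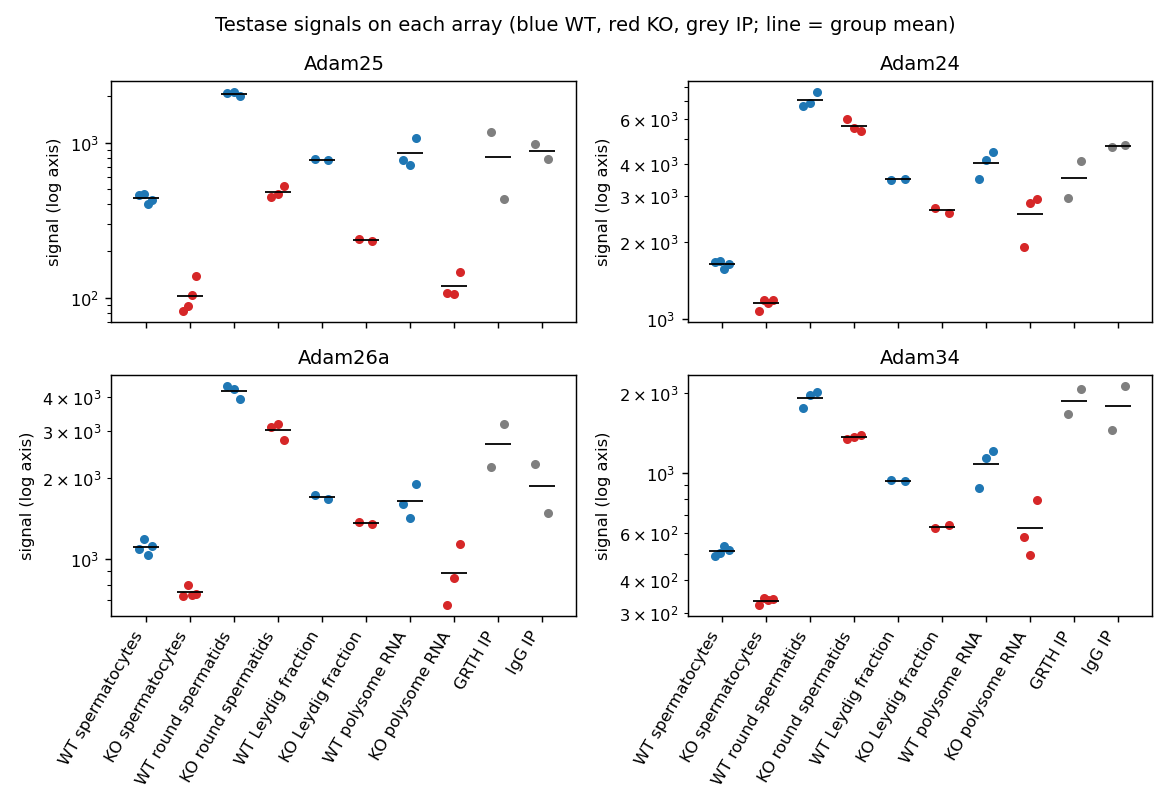
Signal of the 4 testases on each of the 28 arrays (points, log axis), with a line at each group mean. Blue is WT, red is KO and grey is immunoprecipitated (IP) polysome RNA. KO points lie below WT points in spermatocytes, round spermatids, the Leydig fraction and polysome RNA for each gene, with the widest gap for Adam25.

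Adam21 was the other member called lower in all 4 fractions, and the share of all genes so called was not computed. Adam21 read 497, 512, 492 and 504 in KO spermatocytes and 1773, 1888 and 1811 in KO round spermatids, below every WT array of the same cell type. The falls were 0.37 ± 0.09 (limma, adjusted p = 0.0116) and 0.84 ± 0.06 (adjusted p = 3.55e-05). Polysome signals were 2391, 2515 and 2922 in WT and 1295, 1082 and 1464 in KO, and Leydig fraction signals were 1548 and 1495 in WT and 1010.5 and 1027 in KO. Neither pair of groups overlapped, with falls of 1.02 ± 0.21 (adjusted p = 0.0185) and 0.57 ± 0.03 (adjusted p = 0.000158). With 2 Leydig arrays per genotype, Adam6a did not overlap there either, at a difference of 0.03 (limma, adjusted p = 0.271). The gap in that fraction therefore adds nothing to the test. The polysome call was lost without WT polysome array 1 or 3 or KO polysome array 1 or 2, at -1.08, -0.94, -1.04 and -0.91. It was also lost without the arrays of conflicting description (-1.20), with the values as deposited (-1.35) and with no filter on dim genes, and the spermatocyte call was lost with near-identical arrays averaged.

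In the fertilin and ADAM3 group, Adam3 was lower and Adam2 was not called outside the Leydig fraction. Adam3 read 12931, 11768, 10959.8 and 10363 in WT and 10293, 9662, 9217 and 9105 in KO spermatocytes, then 21863, 19844 and 16446 in WT and 15682, 14099 and 12372 in KO round spermatids. KO arrays lay just below WT arrays in both, with differences of -0.26 ± 0.07 (limma, adjusted p = 0.0201) and -0.46 ± 0.13 (adjusted p = 0.0152). The spermatocyte call was lost without WT array 2 or KO array 3 or 4 (-0.25, -0.24 and -0.24), and the round spermatid call without KO array 3 (-0.37). Both were also lost with no filter and with near-identical arrays averaged. In polysome RNA Adam3 read 4445, 4757 and 6769 in WT and 2728, 2886 and 3275 in KO, without overlap and without a call (-0.82 ± 0.23, adjusted p = 0.0724; 0.00306 with the block). Adam2 read 15788, 14188, 13914 and 12834 in KO spermatocytes, 14543, 13834 and 12993 in KO round spermatids and 10233, 20058 and 14021 in KO polysome RNA. These overlapped the WT values (12157, 18146 and 11549 in polysome RNA), with differences of 0.00 ± 0.11, -0.01 ± 0.12 and 0.06 ± 0.29. On Leydig fraction arrays Adam2 fell by 0.20 ± 0.03, not called under quantile normalization (-0.09), and Adam3 by 0.49 ± 0.02.

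The germ cell members Adam1b, Adam18, Adam32 and Adam5 were not called in KO spermatocytes, round spermatids or polysome RNA. Adam1b differed by -0.19 ± 0.10 in spermatocytes, 0.23 ± 0.16 in round spermatids and 0.07 ± 0.26 in polysome RNA. With the block it was called lower in spermatocytes (adjusted p = 0.0138), and without WT round spermatid array 3 it was called higher in round spermatids, at 0.39. Without KO spermatocyte array 3 it was called lower there, at -0.28. Adam18 differed by 0.09 ± 0.05, -0.15 ± 0.06 and -0.19 ± 0.22 in the same order, and Adam32 by 0.11 ± 0.08, 0.09 ± 0.08 and -0.24 ± 0.24. The Adam18 groups did not overlap in round spermatids. Adam32 was called higher with the block in spermatocytes (adjusted p = 0.035), and under quantile normalization in round spermatids (0.42). Adam5 read 5939.7, 5402 and 7685 in WT polysome RNA and 3425, 2789 and 4384 in KO, all KO arrays below all WT arrays. Its difference was -0.85 ± 0.24, adjusted p = 0.0815 by limma, or 0.00197 with the block, while in spermatocytes it was 0.06 ± 0.10 and in round spermatids -0.24 ± 0.13 (adjusted p = 0.0134 with the block). The Adam5 fall in round spermatids was also called without WT array 3, at -0.36. All 4 fell in the Leydig fraction, Adam1b by 0.29, Adam5 by 0.23, Adam18 by 0.26 and Adam32 by 0.20. With probe sets averaged that of Adam1b was -0.11, not called.

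Adam6b was higher in KO round spermatids, while the copies read lower on KO polysome arrays. Adam6b read 1586, 1659.7 and 1489 in WT round spermatids and 2888, 2730.0 and 1930.2 in KO round spermatids. All KO arrays were higher, a rise of 0.65 ± 0.15 (limma, adjusted p = 0.00648). In polysome RNA it read 861, 942 and 658 in WT and 523, 484 and 510.2 in KO, where all KO arrays were lower (-0.67 ± 0.21, adjusted p = 0.114; 0.0139 with the block). The knockout effect in polysome RNA minus that in round spermatids was -1.31 ± 0.25 (adjusted p = 0.0177), the only one of 17 members called for this difference. Of all genes tested 2.79% were called, 0.539% higher and 2.25% lower. That call was lost without any 1 of the WT round spermatid arrays 1, 2 or 3 or KO round spermatid arrays 1 or 2, at -1.32, -1.35, -1.27, -1.20 and -1.24, and with no filter (adjusted p = 0.0694), with the values as deposited and with near-identical arrays averaged. With the block 4 members were called lower for it, namely Adam5, Adam6a, Adam6b and Adam25. Elongating spermatid markers had 11 of 14 called lower for the same difference.

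Adam6a read 5238, 5302 and 4808 in WT and 4918, 4752 and 4637 in KO round spermatids, with overlap and no call (-0.10 ± 0.07, adjusted p = 0.234). In polysome RNA it read 3151, 3049.6 and 2874 in WT and 1639, 1372 and 1903 in KO. All KO arrays were lower, with a difference of -0.89 ± 0.21 (limma, adjusted p = 0.0333, or 0.00226 with the block). Without the block that call was lost whichever of the 6 arrays was left out, at adjusted p-values from 0.0532 to 0.147, with the values as deposited, with no filter, and without the arrays of conflicting description. Its polysome minus round spermatid difference was -0.79 ± 0.19, adjusted p = 0.0504, called without WT polysome array 2 or 3 or KO polysome array 3, at -0.78, -0.83 and -0.90. In spermatocytes Adam6a and Adam6b differed by 0.13 ± 0.07 and -0.18 ± 0.14, with no call. The block called Adam6a higher there (adjusted p = 0.0444), and without KO spermatocyte array 1, the highest of its group, Adam6b was called lower, at -0.33. Leydig fraction signals of Adam6b rose by 0.25 ± 0.07 (adjusted p = 0.0389), a call lost without KO array 1 or 2 (0.24 and 0.26) and under quantile normalization (0.13), median centring (0.07), no filter (adjusted p = 0.108) or averaged probe sets.

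Counted over members, the falls called in spermatocytes and polysome RNA were of germ cell ADAMs. In polysome RNA 0 of 17 members tested were higher and 3 lower (Adam6a, Adam21 and Adam25), against 0.572% of all genes tested higher and 5.77% lower (6.34% in all). Adam25 entered this count and that of spermatocytes through its WT signals, as given above, and was called in both with no filter. At an unadjusted p under 0.05, 0 members were higher and 9 lower, beside 772 higher and 976 lower of all 9097 genes. With the replicate block 9 members were lower, the 3 named with Adam3, Adam5, Adam6b, Adam24, Adam26a and Adam34. The share of all genes called with the block is not given, so the blocked counts cannot be set against the shares here. In spermatocytes 0 of 17 were higher and 6 lower, against 19.6% and 17.8% of all genes (37.4% in all). At an unadjusted p under 0.05, 1 was higher, beside 2340 of all 9097 genes. The block gave 2 higher (Adam6a and Adam32) and 8 lower, the 6 with Adam1b and the somatic Adam11. In round spermatids 3 of 16 were higher and 7 lower, against 41% and 22.4% (63.4% in all), and in the Leydig fraction 4 of 17 higher and 12 lower, against 38.6% and 39.3% (77.9% in all). Of the members, 6 germ cell genes (Adam3, Adam21, Adam24, Adam25, Adam26a and Adam34) were called lower in all 3 cell fractions, with Adam25 tested in spermatocytes through its WT signals. The share of all genes called lower in all 3 was not computed, so whether 6 is many cannot be judged.

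Medians over the 13 germ cell members tested were -0.79 in polysome RNA, -0.19 in spermatocytes, -0.24 in round spermatids and -0.29 in the Leydig fraction. Over all genes tested they were 0.13, 0.03, 0.15 and -0.01. The 3 or 4 somatic members tested had medians of 0.35, -0.04, 0.35 and 0.63. Markers of elongating spermatids moved with these falls, with 14 of 14 lower in each of the 4 fractions. Their summed signal was 249794 to 487791 on WT and 31810.3 to 60041 on KO polysome arrays, and 376773 to 518265 and 228731 to 285115 on round spermatid arrays. On spermatocyte arrays it was 138331 to 167603 in WT and 78153 to 85494 in KO. Round spermatid markers moved with the falls too, with 1 of 7 lower and 0 higher in polysome RNA (median -0.61), 5 lower and 0 higher in spermatocytes, 4 lower and 2 higher in round spermatids, and 5 lower and 0 higher in the Leydig fraction. Their summed signal was 42448 to 59909 on WT and 32950.5 to 41299 on KO polysome arrays, and 86003 to 100594 and 70138 to 76060.5 on round spermatid arrays. On spermatocyte arrays it was 34796 to 36881 in WT and 29746 to 31419 in KO. The part of either marker list in the ADAM falls was not tested.

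**Figure D4:**
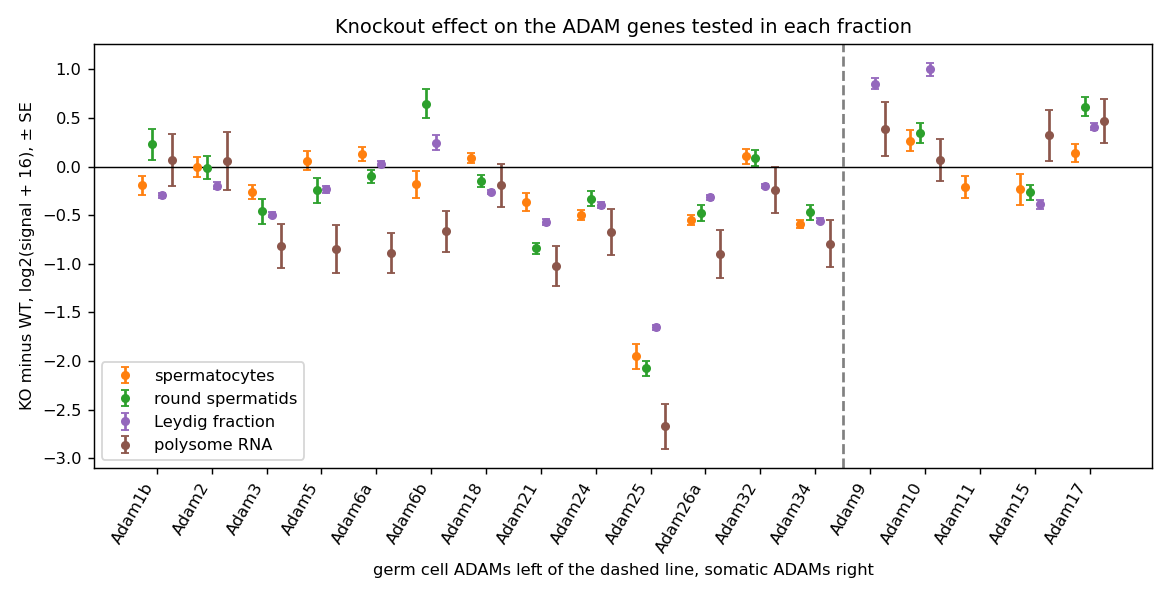
Knockout effect (KO minus WT, log2(signal + 16), ± SE from limma) on each ADAM gene tested, by fraction (colour). Adam25 lies near -2 or lower except in the Leydig fraction, at -1.65, and Adam9, Adam10 and Adam17 lie above 0 in each fraction where they were tested.

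Somatic sheddases went up in KO round spermatids and the KO Leydig fraction. Adam17 read 229, 209.6 and 264 in WT and 382, 339 and 381 in KO round spermatids, without overlap. The rise was 0.62 ± 0.10 (limma, adjusted p = 0.00108), and its 2 other probe sets gave 0.48 and 0.57. Leydig fraction arrays read 315 and 328 in WT and 444 and 420.4 in KO, a rise of 0.41 ± 0.04 (adjusted p = 0.00103). In spermatocytes and polysome RNA Adam17 was not called, at 0.14 ± 0.10 and 0.46 ± 0.23, though the polysome groups (704, 658 and 593 in WT, 733, 868 and 1157 in KO) did not overlap. Among markers in round spermatids, 5 of 9 for spermatocytes were higher in KO and 0 lower, with a median of 0.41, as were 3 of 4 tested for spermatogonia and 2 of 2 for Leydig cells. Macrophage markers there gave 1 higher and 1 lower of 6. Sertoli cell markers gave 0 higher and 4 lower of 4, and peritubular and smooth muscle markers 0 higher and 1 lower of 2. Of all genes tested 41% were higher and 22.4% lower. The part of these lists in the sheddase rises was not tested.

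Adam10, a sheddase of Notch and of the amyloid precursor, read 465 and 454 in the WT Leydig fraction and 881 and 992 in KO. Both KO arrays were near 2 times WT, a rise of 1.00 ± 0.06 (limma, adjusted p = 0.000342). In round spermatids it read 273, 265 and 215 in WT and 341, 332 and 297 in KO, without overlap and higher by 0.35 ± 0.10 (adjusted p = 0.0191). That call was lost without KO array 1 or 2 (0.31 and 0.33), under quantile normalization (0.15), with no filter and with near-identical arrays averaged. Its other probe sets gave 1.07, 0.28 and -0.67, so 1 of 3 disagreed. In spermatocytes it was 0.26 ± 0.11, called only without WT array 4 (0.34), and in polysome RNA 0.07 ± 0.22.

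Adam9, a widely made metalloprotease, was tested in the Leydig fraction and polysome RNA alone. It read 259 and 236 in the WT Leydig fraction and 469 and 450.3 in KO, a rise of 0.85 ± 0.05 (limma, adjusted p = 0.000316). In polysome RNA it read 1001, 709 and 792 in WT and 813, 976 and 1599 in KO, with overlap and no call (0.39 ± 0.28, adjusted p = 0.486). Adam8, known from leukocytes, lay below the filter. It read 122 and 129 in the WT Leydig fraction and 299 and 300.4 in KO, and with no filter on dim genes it was called, at 1.16 (adjusted p = 0.00187). Macrophage markers moved with Adam8, Adam9 and Adam10 there, with 6 of 7 tested higher and 1 lower, and so did Leydig cell markers, with 6 of 6 higher. Of all genes tested in that fraction 38.6% were higher and 39.3% lower. Of the macrophage genes Csf1r, the receptor of a macrophage growth factor, rose by 1.43 ± 0.02, Lyz2 by 1.25 ± 0.02 and C1qa by 1.42 ± 0.03, while Aif1 fell by 0.81 ± 0.02. The 8 macrophage markers summed to 10870.1 to 10906 in WT and 11811 to 11856 in KO, and the 6 Leydig markers to 30945 to 30999.5 and 57168 to 58074. The macrophage sum was higher still on WT round spermatid arrays, at 16559 to 21669, so it does not measure macrophages alone. The macrophage markers tested in the Leydig fraction had a median change of 1.17. The part of either list in the ADAM rises was not tested.

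Adam15, a somatic member of cell junctions, read 780.0, 792 and 743 in WT and 686, 596 and 639 in KO round spermatids. All KO arrays were lower, with a difference of -0.27 ± 0.07 (limma, adjusted p = 0.0155). The call was lost without WT or KO array 2 (-0.25 and -0.22), and its dimmer probe sets gave 0.16, 0.48 and 0.17, opposite in sign. It was also lost with no filter and with near-identical arrays averaged. The Leydig fraction value fell by 0.39 ± 0.05, against 0.23, 0.18 and 0.07 on those probe sets. Adam11 was tested in spermatocytes, at -0.21 ± 0.11 (adjusted p = 0.171, or 0.0152 with the block). The plot of sheddases and Adam6 copies by array shows these signals over all groups.

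**Figure D5:**
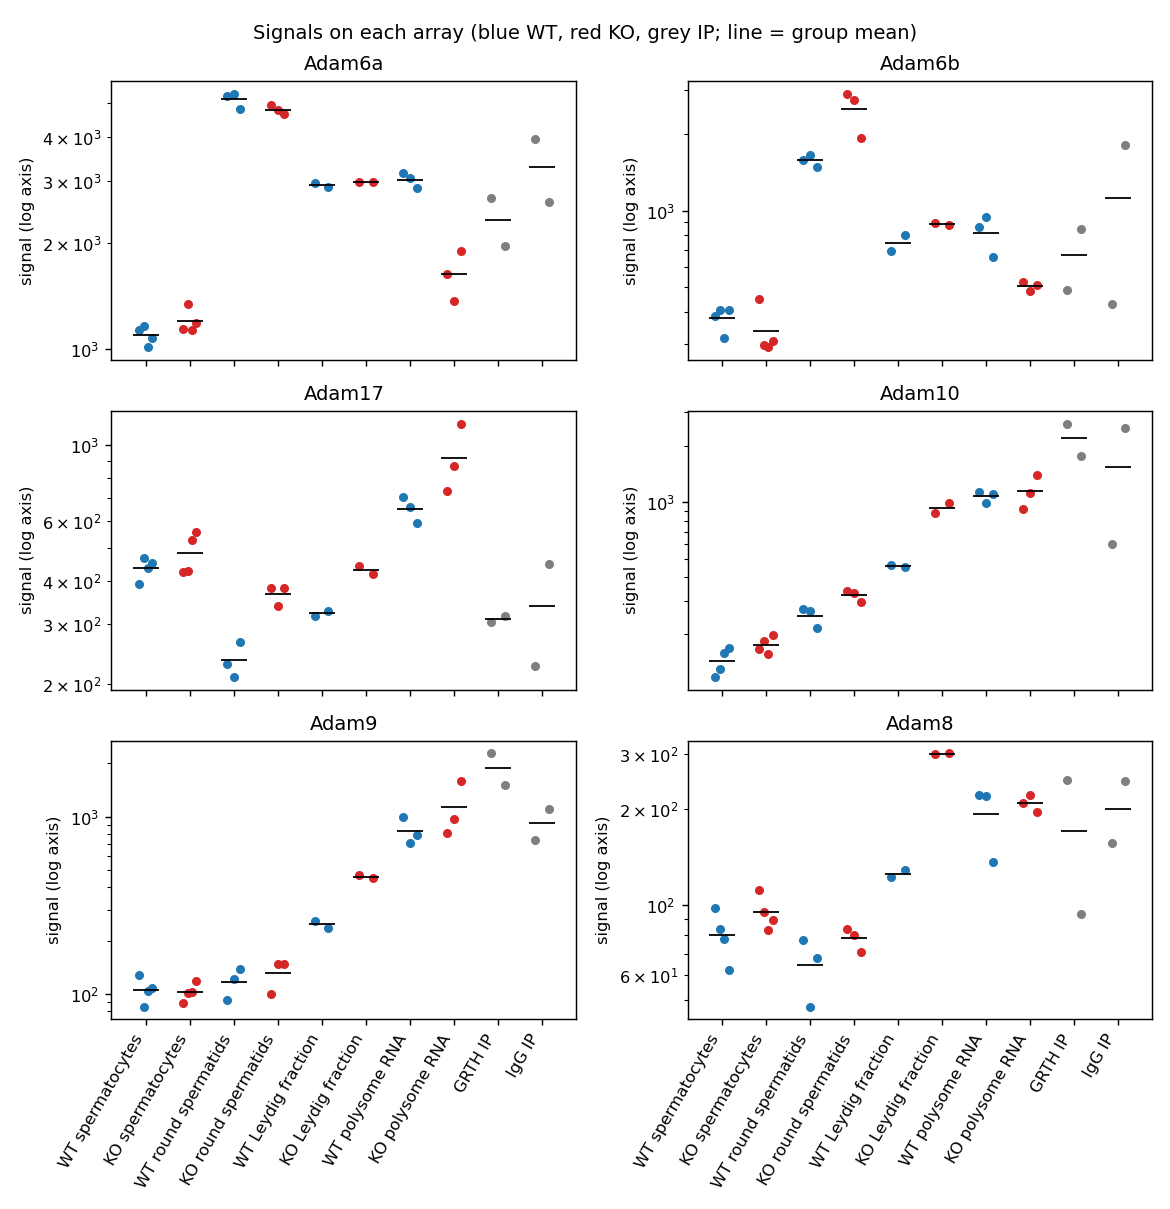
Signal of Adam6a, Adam6b, Adam17, Adam10, Adam9 and Adam8 on each of the 28 arrays (points, log axis), with a line at each group mean. Blue is WT, red is KO and grey is IP polysome RNA. Adam6b is higher in KO than WT round spermatids and lower in KO than WT polysome RNA, and Adam8, Adam9 and Adam10 are higher in the KO than the WT Leydig fraction.

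Knockout effects of some members differed between fractions by the test of the difference itself. For round spermatids minus spermatocytes 5 of 17 members tested were called, 3 higher and 2 lower, against 32.3% of all genes tested higher and 13.7% lower (46% in all). Adam6b, Adam11 and Adam17 had the higher effect in round spermatids, by 0.83 ± 0.22 (adjusted p = 0.00792), 0.63 ± 0.21 (adjusted p = 0.0255) and 0.48 ± 0.15 (adjusted p = 0.0163) by limma. Adam21 and Adam18 had the lower, with differences of -0.48 ± 0.12 (adjusted p = 0.00565) and -0.24 ± 0.08 (adjusted p = 0.0174) by limma. The 4 testases were not called, with differences of 0.17 ± 0.09, -0.13 ± 0.17, 0.07 ± 0.09 and 0.12 ± 0.08 in order of number. Adam11, dim in round spermatids as given above, stayed in the test in 8 of 14 fits that left out 1 array and was called in 4 of them. The Adam11 call was lost without WT round spermatid array 1 or 2 or KO array 1 or 3, at 0.49, 0.58, 0.61 and 0.58, and in 6 other fits Adam11 fell below the filter. With the block, 9 members were called, the 5 with Adam1b (higher) and Adam3, Adam5 and Adam6a (lower). With near-identical arrays averaged Adam6b, Adam17, Adam18 and Adam21 were not called. With no filter Adam11 and Adam18 were not (adjusted p = 0.0669 and 0.056), nor was Adam17 under quantile normalization (0.34) or Adam18 under median centring (-0.19). Calls were gained for Adam1b without KO spermatocyte array 3 (0.51) and, without WT round spermatid array 3, for Adam1b (0.58), Adam24 (0.22) and Adam6a (-0.27).

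For the Leydig fraction minus round spermatids 4 of 17 were called, all higher, against 16.3% of all genes tested higher and 30.2% lower (46.5% in all). Adam10 had the higher effect in the Leydig fraction, by 0.65 ± 0.15 (adjusted p = 0.00653), and Adam25 and Adam21 fell less there, by 0.42 ± 0.10 (adjusted p = 0.00656) and 0.27 ± 0.07 (adjusted p = 0.0124) by limma. Adam9 differed by 0.71 ± 0.25 (adjusted p = 0.0405), but it passed the filter through its Leydig fraction signals. Its round spermatid means of 117 in WT and 131 in KO lay below the group medians of 159 and 173, so this value supports nothing. It stayed in the test in 8 of 10 fits that left out 1 array and was called in 3. The Adam9 call was lost without WT Leydig array 1 or 2, WT round spermatid array 2 or 3, or KO round spermatid array 1, at 0.78, 0.65, 0.68, 0.60 and 0.55. That of Adam21 was lost without Leydig array 2 of either genotype, at 0.25 (WT) and 0.26 (KO). With no filter Adam9 and Adam21 were not called (adjusted p = 0.0959 and 0.0535), nor under quantile normalization (0.55 and 0.15). Under median centring Adam9, Adam21 and Adam25 were not called, at 0.53, 0.09 and 0.24. Calls were gained without WT round spermatid array 3 for Adam1b (-0.68), Adam17 (-0.29) and Adam6a (0.17). They were gained for Adam32 without WT round spermatid array 1 (-0.34) or KO array 3 (-0.33), and for Adam6b without KO array 3 (-0.58). For polysome RNA minus round spermatids Adam15 was called without WT polysome array 2 (0.84).

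The WT Leydig fraction carried germ cell ADAM signal near that of the WT germ cells on the same probe sets. Adam2 read 11902 and 11561 there and Adam32 11705 and 11741, against 14504, 13332, 12434 and 11806 in spermatocytes. Of 16 members tested against the mean of the germ cell groups, 2 were higher and 6 lower, with 30.7% of all genes tested higher and 21.9% lower (52.6% in all). Adam10 was higher by 1.21 ± 0.13 and Adam6a by 0.30 ± 0.07. Adam5, Adam3, Adam1b, Adam26a, Adam32 and Adam25 were lower, with differences of -0.44 ± 0.12, -0.42 ± 0.11, -0.39 ± 0.14, -0.35 ± 0.07, -0.31 ± 0.08 and -0.30 ± 0.06. Adam9, Adam8, Adam12 and Adam23, below the filter, were called without it, at 1.06, 0.70, 0.67 and 0.75. Of round spermatid markers 0 of 7 were higher and 1 lower, of elongating spermatid markers 1 of 14 higher and 6 lower, and of macrophage markers 3 of 4 higher. All 4 Sertoli cell markers tested were higher, and 6 of 6 Leydig cell markers were higher, by a median of 3.56. Their part in the ADAM values was not tested. With either WT Leydig array left out, Adam1b, Adam3, Adam5 and Adam32 lost their calls, at -0.37, -0.40, -0.39 and -0.31 without array 1 and -0.41, -0.43, -0.48 and -0.31 without array 2. Adam6a lost its call without array 1 (0.28), and Adam1b also without WT spermatocyte array 1, 3 or 4 or WT round spermatid array 1 (-0.40, -0.37, -0.38 and -0.39). Calls were gained for Adam15 without WT spermatocyte array 4 (-0.26) and for Adam2 without WT round spermatid array 3 (-0.32), and those of Adam3, Adam5 and Adam32 were lost under quantile normalization and that of Adam1b with no filter.

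In the immunoprecipitates no ADAM message was called different between GRTH antibody and IgG. By limma 0 of 17 members tested were called, and 0 at an unadjusted p under 0.05, where 0% of all genes were called and 364 of 9097 had such a p. Adam25 read 1174 and 430.0 with GRTH antibody and 975 and 783 with IgG, and Adam21 read 2818 and 1858 with GRTH antibody and 2654 and 2144 with IgG. The groups overlapped for both. Arrays of 1 group were far apart, and the standard errors of the 17 members ran from 0.58 to 0.76 on the log2 scale. Adam9 had the largest positive difference, 1.02 ± 0.60, and Adam15 the largest negative, -1.28 ± 0.72. With a spread shared over all 28 arrays, 4 were called, Adam9 higher and Adam15, Adam18 and Adam32 lower. The share of all genes called in that fit is not given. Log2 differences between arrays of 1 group had an SD of 1.31 (GRTH antibody) and 1.14 (IgG), against 0.26 in the WT Leydig fraction. A shared spread therefore understates that of the IP arrays. Adam15 passed the filter through its IgG signals, since its GRTH antibody mean of 198 lay below the group's median of 234.

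Genes that act on these proteins were read from 2 further lists. Of 16 factors known to mature or retain ADAM3 and fertilin, 14 were measured. In polysome RNA 0 of 14 tested rose and 3 fell, namely Prss37 (-2.52 ± 0.37), Prss55 (-1.55 ± 0.27) and Calr3 (-1.70 ± 0.31), against 0.572% and 5.77% of all genes. With the block 2 were higher and 6 lower. Those shares are of the fit without the block, so the blocked counts have no share of all genes beside them. Prss37 and Prss55 are serine proteases of the testis, and Calr3 is a testis chaperone of the endoplasmic reticulum. In round spermatids 1 of 13 rose and 5 fell, against 41% and 22.4% of all genes tested, with Calr3 (-0.93 ± 0.08, limma adjusted p = 5.34e-05) and the testis form of Ace, angiotensin-converting enzyme (-1.20 ± 0.10, adjusted p = 5.61e-05). In spermatocytes 3 of 14 rose and 5 fell, against 19.6% and 17.8% of all genes, with Ace at -0.82 ± 0.05 and Calr3 at -0.50 ± 0.07, and in the Leydig fraction 4 of 14 rose and 9 fell, against 38.6% and 39.3%.

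Of 12 partners of ADAM10 and ADAM17, all were measured. In round spermatids 5 of 6 tested rose and 1 fell, against 41% and 22.4% of all genes tested (63.4% in all), with Frmd8, which holds ADAM17 carriers at the cell surface, at 0.91 ± 0.07 and the ADAM10 tetraspanins Tspan33 and Tspan15 at 0.93 ± 0.09 and 0.85 ± 0.09. On Leydig fraction arrays 4 of 7 rose and 2 fell, a share called near the 77.9% of all genes, with Tspan15 at 1.32 ± 0.03 and Furin, a protease that activates ADAM precursors, at 0.76 ± 0.03. In spermatocytes 1 of 4 rose (Tspan33, 0.20 ± 0.05) and 2 fell, against 19.6% and 17.8% of all genes. In polysome RNA limma called 0 of 9 (6.34% of all genes). At an unadjusted p under 0.05 it was 0 of 9 too, beside 1748 of all 9097 genes. With the block 3 were higher, a count with no share of all genes beside it. Medians were 0.59 in round spermatids and 0.09 in the Leydig fraction, beside the 0.15 and -0.01 of all genes tested.

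The 10 members below the filter in every comparison were dim. Adam7, an epididymal member, read 1.20 to 64.6 over the 28 arrays and Adam28, known from lymphocytes and epididymis, 1.32 to 90.9. Adam12 and Adam19, the meltrins, read 22.7 to 231 and 14.2 to 120.4, and Adam33, known from airway muscle, 21.9 to 195. Adam22 and Adam23, receptors of the LGI proteins in brain, read 34.9 to 287 and 24.5 to 183, and Adam8 47.6 to 300.4. The germ cell genes Adam1a, whose product pairs with ADAM2 inside the cell, and Adam4 read 33.9 to 129 and 28.1 to 352. With no filter, Adam22, Adam23 and Adam28 were called higher in KO spermatocytes, at 0.46, 0.55 and 0.97, and Adam23 in the KO Leydig fraction, at 0.88. In WT round spermatids against WT spermatocytes, Adam19 was lower (-1.01) and Adam23 and Adam33 higher (0.33 and 0.89) on the same terms.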

How the data were processed

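The 28 arrays of 10 groups hold linear signal intensities for each probe set, deposited by the authors and made with GCOS, per the submitters' processing notes; the version was not given in the sources used here. The deposited intensity columns had a trimmed mean of 500 (0.02 trimmed at each end) on 24 arrays. On WT polysome 1 and 2 and KO polysome 1 and 2 it was 168, 54.5, 129.97 and 29.8, so every array was rescaled to 500. Labelling took 1 step for polysome and cell RNA and 2 for IP RNA, per the labels' protocols. The number of arrays limits the precision.

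Probe sets were named by the platform's annotation, and a gene with several probe sets took the one brightest on average, in log2(signal + 16), across the 28 arrays. Each comparison fitted its own groups with limma 3.58.1 (lmFit, eBayes) in R 4.3.3, with the package data.table, version 1.17.8, on the 9097 genes at or above the median, with Benjamini-Hochberg adjustment and a threshold of 0.05. The fit was tested on simulated data for each comparison of groups, not for the differences of knockout effects. Differences are ± SE. KO and stage comparisons share arrays, as do those of knockout effects.

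Same-numbered arrays of 2 groups deviated together. Deviations from group means correlated across genes at 0.436, 0.668 and 0.665 in polysome RNA. Spermatocyte pairs gave 0.322, 0.28, 0.26 and 0.386, and round spermatid pairs 0.247, 0.138 and 0.245. Pairs of the 2 cell types gave 0.261, 0.204 and 0.188 in WT and 0.206, 0.193 and 0.204 in KO. The data, not the labels, give this pairing. Blocked values stand where they change a call or a count. The share of all genes called with the block is not given, so no blocked count of members or of a list can be set against the shares of all genes. With 2 pairs, Leydig (0.0277) and IP (0.434) arrays were not taken as paired in the results. The block fit of the Leydig fraction minus round spermatids, run as an alternative, does pair the Leydig arrays by number.

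Any ADAM gene and Ddx25 could be named, and at most 4 genes past the threshold of each other list. The members and lists were chosen with earlier results of these data known. Alternatives were other scalings, offsets, filters, probe set rules, fits and left-out arrays. Promoters came from RefSeq. Python 3.11.15, pandas 2.3.3, numpy 2.4.6, biopython 1.88 and matplotlib 3.10.9 were used.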

Additional observations from a re-analysis of the deposited data

Results flagged for a closer look

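Adam6b read 450 on KO spermatocyte array 1 against 290 to 307 on the other 3 arrays of that group, a gap above the critical value for 4 samples; 56 gene and group pairs were tested this way, and chance passes about 1 in 20 groups. The knockout effect in round spermatids minus that in spermatocytes differed from 0 by limma for Adam6b (0.83), Adam11 (0.63), Adam17 (0.48), Adam18 (-0.24) and Adam21 (-0.48). That in the Leydig fraction minus that in round spermatids differed for Adam9 (0.71), Adam10 (0.65), Adam25 (0.42) and Adam21 (0.27), and that in polysome RNA minus that in round spermatids for Adam6b (-1.31). Adam11 and Adam9 were dim in round spermatids and passed the filter through the other fraction. Adjusted p-values stand beside each of these differences in the results.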

How the results depend on the processing

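Counts of called ADAM genes depended on the setting more than directions did. In polysome RNA the 3 calls became 6 under median centring, 0 with the values as deposited, 1 with no filter, 8 with all 28 arrays in the fit, 8 with array weights, and 0 without the arrays of conflicting description, or 1 with the tested genes held. Pairing by replicate block gave 9 calls there, 10 in spermatocytes (6 without it), 9 for round spermatids minus spermatocytes and 4 for polysome RNA minus round spermatids. With all 28 arrays in the fit 6 were called in round spermatids, 1 in the Leydig fraction, 4 in the immunoprecipitates, 1 for WT Leydig against germ cells, and 0 for round spermatids minus spermatocytes and for the Leydig fraction minus round spermatids. For round spermatids minus spermatocytes quantile normalization gave 8, array weights 9 and averaging of near-identical arrays 0, against 5. For the Leydig fraction minus round spermatids quantile normalization gave 7 and array weights 11, against 4. For polysome RNA minus round spermatids, with 1 call, the counts were 3 (quantile normalization), 2 (median centring), 0 (as deposited), 2 (offset 64), 0 (no filter), 3 (array weights), 0 (near-identical arrays averaged) and 3 (without arrays of conflicting description).

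Leaving out 1 array gave 0 to 2 calls in polysome RNA, 5 to 7 in spermatocytes, 8 to 13 in round spermatids, 15 to 17 in the Leydig fraction, 0 to 0 in the immunoprecipitates, 13 to 15 and 13 to 14 for stage in WT and KO, and 3 to 9 for WT Leydig against germ cells. For the differences of knockout effects, in the order above, it gave 4 to 8, 2 to 6 and 0 to 3. A left-out array can take Adam25 below the dim-gene filter in polysome RNA. Signs reversed under quantile normalization for Adam2 in KO round spermatids (0.31), Adam32 and Adam5 between WT stages (-0.19 and -0.0040), Adam32 in WT Leydig against germ cells (0.025), Adam2, Adam3 and Adam32 for round spermatids minus spermatocytes (0.29, 0.17 and 0.29) and Adam5 for the Leydig fraction minus round spermatids (-0.23). They reversed with the mean of probe sets for Adam15 in KO round spermatids (0.14) and Adam17 in WT Leydig against germ cells (-0.25), and under median centring for Adam6a in the KO Leydig fraction (-0.15). The cause of these changes was not tested, save that averaging, fewer arrays and no filter change how many arrays or genes enter. No paired fit was possible for WT Leydig against germ cells. The block added calls for Adam1b and Adam32 (both lower) for the Leydig fraction minus round spermatids, a fit that also pairs the Leydig arrays, which were not taken as paired. Its other changes stand beside the results.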

Other observations

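Probe sets that carry several symbols were outside the rule. A probe set annotated to both Adam1a and Mapkapk5, a kinase gene, had mean signals of 3528 in WT spermatocytes and 15993 in WT round spermatids, and of 10232 in WT and 3834 in KO polysome RNA. Its knockout differences were -1.41 in polysome RNA, -0.39 in spermatocytes, -0.54 in round spermatids and -0.54 in the Leydig fraction. Another of the same pair of genes gave -1.59, -0.43, -0.36 and -0.65 in the same order. In a limma fit over all probe sets the first had adjusted p-values of 0.0949, 0.0196, 0.0453 and 0.0106, and the second 0.041, 0.00613, 0.124 and 0.0092. The probe set of Adam1a alone read at most 129 on any array. A probe set shared by Adam6a and Adam6b gave -0.64 in polysome RNA and 0.03 in round spermatids.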
